A study of Mus musculus with 54 samples.

Results

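Myosins are the motors that pull on actin filaments, tropomyosins are the rods that lie along those filaments and set which motors can bind, and troponins are the calcium switch that moves tropomyosin in striated muscle. Non-muscle myosin II and the non-muscle forms of tropomyosin build the stress fibres of fibroblasts, while sarcomeric chains and troponins belong to skeletal and cardiac muscle. Unconventional myosins carry membranes and other cargo along actin. Preadipocytes are fibroblast-like cells that lose stress fibres and round up as they fill with fat.

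The members were all array probes whose platform gene symbol starts with Myh, Myl, Myo, Tpm, Tnnc, Tnni or Tnnt followed directly by a digit, with Myl9 left out. This gave 74 of 29922 probes and 55 of 16637 genes. A gene was read through its probe with the highest mean and counted as measured where its mean log2 level over all 54 arrays was above 6.07, the lower quartile of gene probes. Of the 55 genes, 38 were measured. These were 4 of 4 heavy chains of non-muscle and smooth muscle myosin II, 4 of 4 tropomyosins, 7 of 8 troponins, 7 of 13 sarcomeric myosin chains and 16 of 24 unconventional myosins. The other 2 genes, Tnni3k (a kinase named after a troponin, not a troponin itself) and Myl6b, were not measured. The nearest members above the limit were Tnni3 at 6.15 and Tnni1 at 6.16, and the nearest below it were Myo3a at 6.05 and Tnni3k at 6.01. The 17 unmeasured genes were Myh2, Myh3, Myh4, Myh6, Myl1, Myl6b, Myl7, Myo15b, Myo16, Myo18b, Myo1f, Myo1g, Myo3a, Myo5b, Myo7b, Tnni2 and Tnni3k. Myl6, the essential light chain of non-muscle myosin, was not analysed here.

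The samples were mouse 3T3-L1 cells, a clonal preadipocyte line that becomes fat cells in culture. There were 3 arms of 18 times each, from 0 to 288 h, with 1 array per arm and time. The arms were an untreated control going through normal differentiation, the vehicle DMSO at 0.5%, and prieurianin, a plant limonoid, at 2 µM. The labels do not say whether times came from separate cultures, or whether the treated cells received the differentiation stimulus together with the control, so p-values measure only the spread between these samples. Levels are quantile-normalised intensities on the log2(intensity + 16) scale, which understates changes of dim genes, and folds are on that scale. A level depends on the probe, so levels are not compared between genes. Arms were matched by time in 3 windows, an early one (0.25 to 3 h, 5 times), a middle one (5 to 48 h, 7 times) and a late one (96 to 288 h, 5 times). A gene was called at an adjusted p under 0.05 over all 12792 genes tested, in a limma fit in which the times of a window stand in for replicates. Errors written ± are standard errors of that fit.

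Median deposited intensity ran from 88 to 313 per array, 93 to 176 probes per array were saturated, and the number of arrays limits the precision. The mean of the 7 measured adipocyte markers of a list of 8 ran from 13.10 to 13.97 on the late arrays of both controls. In the prieurianin arm it ran from 10.25 to 12.28 on 4 late arrays and was 14.20 at 192 h. That 192 h array correlated best with the untreated array at 144 h (r = 0.971 over the genes tested), so it stands apart from its arm. The members called late against DMSO are therefore also given without its time. Late results of the gene lists include it. All 6 preadipocyte markers of the list were measured, and their mean ran from 12.83 to 14.54 over the 54 arrays. Of 12 skeletal muscle markers 6 were measured, and these were the myogenic factor Myog (mean 6.31) and Cav3, Actn3, Ttn, Casq1 and Des (6.94 to 9.53). The myogenic factors Myod1, Myf5 and Myf6 and the muscle genes Ckm, Mb and Ryr1 lay below the limit, at 4.50 to 6.02. In RNA from whole cultures, fewer cells of a type and less RNA per cell cannot be told apart.

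Promoter sequences are printed for the members that the results turn on, Tpm1, Tpm2 and Myh9 for their differences and Myo1e and Myl7 because they carry a CArG box, the site bound by serum response factor, a regulator of many actin cytoskeleton genes. The sequences are the 250 bases before the RefSeq start, 5′ to 3′ on the gene's strand, build GRCm38.p6. Capitals mark a CArG box or the TEAD motif GGAATG, the core bound by the partners of YAP, searched on both strands. The promoters shown are Tpm1 at chr9:67049214-67049463 (minus strand), Tpm2 at chr4:43523555-43523804 (minus), Myh9 at chr15:77842176-77842425 (minus), Myo1e at chr9:70207100-70207349 (plus) and Myl7 at chr11:5898783-5899032 (minus).
Tpm1: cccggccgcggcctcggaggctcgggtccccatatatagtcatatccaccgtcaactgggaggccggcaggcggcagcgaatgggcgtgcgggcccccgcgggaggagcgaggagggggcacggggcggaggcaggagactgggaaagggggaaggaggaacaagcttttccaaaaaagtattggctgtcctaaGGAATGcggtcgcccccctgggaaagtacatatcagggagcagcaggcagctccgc
Tpm2: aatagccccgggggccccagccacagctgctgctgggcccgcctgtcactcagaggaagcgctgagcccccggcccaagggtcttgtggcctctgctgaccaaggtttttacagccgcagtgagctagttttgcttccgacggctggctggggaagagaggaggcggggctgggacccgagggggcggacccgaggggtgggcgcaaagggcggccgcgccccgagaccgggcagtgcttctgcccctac
Myh9: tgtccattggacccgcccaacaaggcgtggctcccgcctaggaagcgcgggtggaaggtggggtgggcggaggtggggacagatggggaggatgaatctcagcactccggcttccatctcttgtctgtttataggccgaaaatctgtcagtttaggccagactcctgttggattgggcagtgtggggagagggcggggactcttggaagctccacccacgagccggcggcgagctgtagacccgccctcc
Myo1e: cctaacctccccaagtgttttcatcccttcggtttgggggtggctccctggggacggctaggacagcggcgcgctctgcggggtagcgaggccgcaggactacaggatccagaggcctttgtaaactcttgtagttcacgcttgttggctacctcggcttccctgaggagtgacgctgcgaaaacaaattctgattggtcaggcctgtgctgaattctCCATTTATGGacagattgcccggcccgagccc
Myl7: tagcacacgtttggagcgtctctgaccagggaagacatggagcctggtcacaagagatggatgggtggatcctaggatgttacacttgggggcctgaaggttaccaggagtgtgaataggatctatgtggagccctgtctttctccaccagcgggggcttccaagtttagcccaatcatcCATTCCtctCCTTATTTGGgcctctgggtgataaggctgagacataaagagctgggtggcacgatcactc

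The RefSeq table held 59 promoters of 48 of the 55 genes. A CArG box was found in 4 of the 59 (6.78%), those of Myh4, Myl3, Myl7 and Myo1e, against 482 of all 32851 promoters in the table (1.47%). GGAATG was found on either strand in 16 of the 59 (27.1%), against 4153 of all promoters (12.6%). In the Tpm1 promoter it begins 56 bases before the start. In the Myl7 promoter its complement begins 70 bases before the start and the CArG box 61 bases before, without overlap, and in the Myo1e promoter the CArG box begins 32 bases before the start. Neither motif is in the printed windows of Tpm2 or Myh9. A match describes the letters of this window and is not evidence of binding.

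Most members called between prieurianin and its vehicle were higher in prieurianin. From 5 to 48 h, 3 of 4 tropomyosins, the non-muscle heavy chain Myh9 and 3 unconventional myosins were higher, and 1 unconventional myosin was lower. That is 8 of 38 members called (21.1%), 7 higher and 1 lower, where 11.1% of all genes tested were called (6.62% higher and 4.51% lower). From 96 to 288 h, 3 tropomyosins, Myh9, the troponin T gene Tnnt3 and 3 unconventional myosins were higher and 2 unconventional myosins lower. That is 10 of 38 (26.3%), 8 higher and 2 lower, where 16.7% of all genes were called (7.32% higher and 9.36% lower). None of the 7 measured sarcomeric myosin chains was called in either window. Myl7, a sarcomeric chain below the limit, is described further on. From 0.25 to 3 h no member was called by limma, as for all genes (0.0% called), and at an unadjusted p under 0.05 there were 0 members and 300 genes.

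By class the medians of the log2 difference, prieurianin minus DMSO, were 0.89 and 1.23 in the middle and late windows for the 4 tropomyosins. They were -0.01 and 0.12 for the 4 myosin II heavy chains, 0.02 and 0.05 for the 7 sarcomeric chains, 0.04 and 0.15 for the 7 troponins, and 0.17 and 0.12 for the 16 unconventional myosins. Over all genes tested they were -0.01 and 0.02. With 192 h left out, 12 members were called in the late window, 9 higher and 3 lower, Myo1d and Myo6 being the added ones, where 25.8% of all genes were called. Without both 240 and 288 h there were 7 calls, 6 higher and 1 lower: Myo7a, Myo9b, Myo18a and Myo19 were not called and Tnnt2 was, where 2.49% of all genes were called. Centring arrays on their median in place of quantile scaling left 5 calls at 5 to 48 h, all higher. That scaling also moved the calls over all genes from 847 higher and 577 lower to 555 higher and 26 lower.

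**Figure D1:**
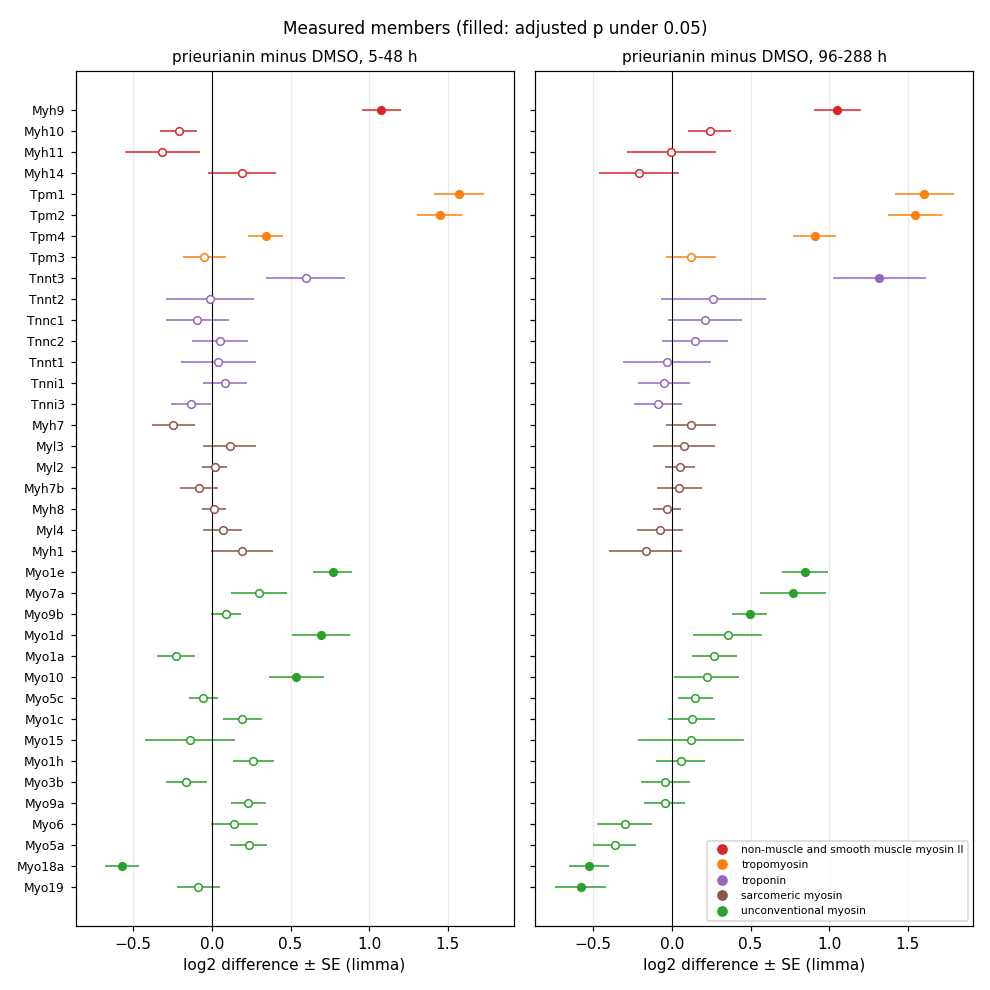
Log2 difference between prieurianin and DMSO (x axis, with standard errors from limma) for the 38 measured members, coloured by class, from 5 to 48 h (left) and 96 to 288 h (right); filled points have an adjusted p under 0.05. Tpm1, Tpm2 and Myh9 sit above 1 in both panels, and none of the 7 sarcomeric myosin chains is filled.

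Tpm1, which makes muscle and non-muscle tropomyosins by alternative splicing, had the largest difference of the 38 members in both windows. From 5 to 48 h its level was 14.45 at the lowest, 15.00 at the median and 15.19 at the highest in prieurianin, against 13.02, 13.21 and 14.31 in DMSO and 13.22, 13.48 and 14.72 in untreated cells. The prieurianin and DMSO ranges did not overlap, and the prieurianin arrays were higher at 7 of 7 times, by 1.57 ± 0.16 (2.97-fold, adjusted p = 1.7e-08). At 96, 144, 192, 240 and 288 h the level was 14.32, 14.77, 13.81, 14.95 and 14.82 in prieurianin, 12.33, 12.14, 12.87, 13.77 and 13.56 in DMSO, and 12.66, 12.37, 12.95, 13.63 and 13.02 in untreated cells. Every late prieurianin array was above every late control array. The late difference from DMSO was 1.60 ± 0.19 (3.04-fold, adjusted p = 5.0e-07), and 1.77 without 192 h.

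Against untreated cells Tpm1 was higher by 1.27 ± 0.16 in the middle window (adjusted p = 4.2e-07) and by 1.61 ± 0.19 in the late one (3.3e-07). The 2 comparisons share the prieurianin arrays. At 5 and 9 h the level was 14.72 and 13.65 in untreated cells, 14.31 and 13.13 in DMSO, and 15.00 and 15.13 in prieurianin. The arms part between these times in the plot of the tropomyosins.

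Tpm2, also a gene of muscle and non-muscle forms, differed in another way. From 5 to 48 h the lowest, median and highest levels were 13.33, 14.55 and 14.86 in prieurianin, 12.42, 12.97 and 13.41 in DMSO, and 12.58, 13.08 and 13.48 in untreated cells. The ranges overlapped only through the 5 h prieurianin array, and from 9 h on every prieurianin array was above every control array of the window. The difference from DMSO was 1.45 ± 0.14 (2.73-fold, adjusted p = 1.4e-08), higher at 7 of 7 times. At 96, 144, 192, 240 and 288 h the levels were 14.89, 14.28, 14.80, 14.39 and 14.38 in prieurianin, 12.92, 12.89, 13.18, 12.81 and 13.21 in DMSO, and 13.06, 12.86, 12.79, 13.05 and 13.19 in untreated cells. The late difference from DMSO was 1.55 ± 0.17 (2.92-fold, adjusted p = 1.8e-07). Without 192 h it was 1.53, so unlike Tpm1 the 192 h array was not low for Tpm2. Against untreated cells Tpm2 was higher by 1.35 ± 0.14 and 1.56 ± 0.17 (adjusted p = 3.5e-08 and 1.3e-07).

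Myh9 encodes the heavy chain of non-muscle myosin IIA, the motor of stress fibres. Its lowest, median and highest levels from 5 to 48 h were 13.86, 14.41 and 14.58 in prieurianin, 12.74, 13.25 and 13.76 in DMSO, and 12.94, 13.24 and 13.90 in untreated cells. The prieurianin and DMSO ranges did not overlap, and the difference was 1.08 ± 0.13 (2.11-fold, adjusted p = 3.2e-07), higher at 7 of 7 times. At 96, 144, 192, 240 and 288 h the levels were 14.57, 14.85, 13.93, 15.15 and 14.99 in prieurianin, 13.14, 13.37, 13.73, 14.04 and 13.96 in DMSO, and between 13.17 and 14.05 in untreated cells. The 192 h prieurianin array was inside the control range and the other 4 were above it. The late difference from DMSO was 1.05 ± 0.15 (2.07-fold, adjusted p = 1.3e-05), and 1.26 without 192 h. Against untreated cells it was 1.06 ± 0.13 and 1.04 ± 0.15 (adjusted p = 1.9e-07 and 9.2e-06).

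The other 3 heavy chains of this class were not called. Myh10, the non-muscle myosin IIB chain, differed from DMSO by -0.21 ± 0.12 and 0.24 ± 0.14 in the middle and late windows, and its other probe by -0.14 and 0.06. Myh11, the smooth muscle myosin chain and a defining marker of that cell type, differed by -0.32 ± 0.24 in the middle window and was level in the late one (adjusted p = 1.0). Its late levels ran from 6.91 to 8.43 in prieurianin, with 8.43 at 192 h, and from 7.05 to 7.68 in DMSO. Myh14, whose symbol is also an older name of Myh7b so that the probe may read either gene, differed by 0.19 ± 0.21 and -0.21 ± 0.25.

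**Figure D2:**
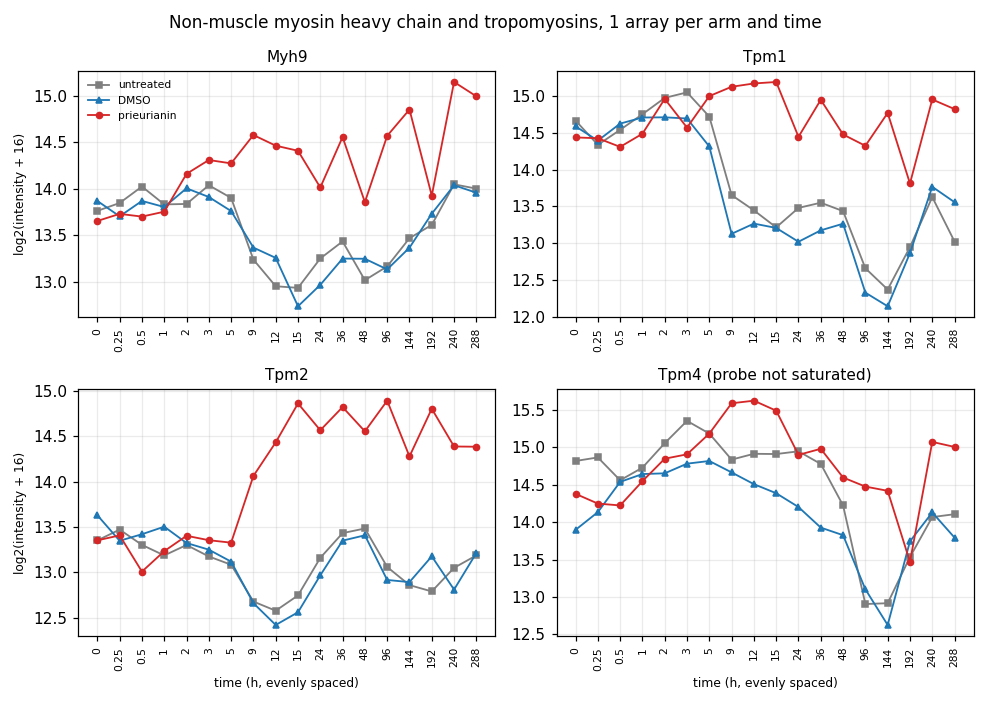
Level of Myh9, Tpm1, Tpm2 and Tpm4 as log2(intensity + 16) against time in h (evenly spaced), 1 array per point, in untreated cells (grey), DMSO (blue) and prieurianin (red); Tpm4 is shown through its unsaturated probe of higher mean. The prieurianin arm parts from both controls by 9 h for Myh9, Tpm1 and Tpm2, and its 192 h array is within or near the control levels for Myh9 and Tpm4 but not for Tpm2.

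Tpm4, a mainly non-muscle tropomyosin, had 3 probes. The brightest was saturated on 22 of 54 arrays, 12 of them in prieurianin, 8 untreated and 2 in DMSO, and 6 of the 7 middle prieurianin arrays were saturated. Its middle difference of 0.34 ± 0.11 (adjusted p = 0.049) is therefore limited by the scanner, and it was not called in 19 of 31 alternative settings (0.25 without 48 h, adjusted p = 0.18). The other probes were not saturated. They differed from DMSO by 0.86 ± 0.15 and 0.90 ± 0.16 in the middle window and by 1.01 ± 0.17 and 1.37 ± 0.18 in the late one, all called with every probe tested alone (adjusted p between 4.4e-06 and 0.00018 over 15765 probes). Against untreated cells they differed in the middle window by 0.37 ± 0.15 (adjusted p = 0.055) and 0.49 ± 0.16 (0.017).

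Through the unsaturated probe of higher mean, the late levels of Tpm4 at 96, 144, 192, 240 and 288 h were 14.48, 14.42, 13.47, 15.07 and 15.01 in prieurianin, 13.10, 12.63, 13.75, 14.13 and 13.79 in DMSO, and 12.91, 12.92, 13.54, 14.07 and 14.11 in untreated cells. All late prieurianin arrays but that of 192 h were above every late control array. With the brightest probe the late difference was 0.91 ± 0.13 (1.87-fold, adjusted p = 2.2e-05), and 1.08 without 192 h. Tpm3 was dim, between 5.50 and 6.94 on all arrays, and differed from DMSO by -0.05 ± 0.14 and 0.12 ± 0.16.

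The regulatory light chains that pair with Myh9 carry older names on the platform and were added by current symbol. Myl12a (2900073G15Rik on the array) was higher than in DMSO by 0.70 ± 0.15 in the middle window and by 0.89 ± 0.17 in the late one (adjusted p = 0.0016 and 0.0006 over all genes). Against untreated cells it was higher by 0.67 ± 0.15 in the middle window, and the late difference was 0.39 ± 0.17 (adjusted p = 0.11), DMSO lying at -0.50 ± 0.17 from untreated. Myl12b (Mylc2b on the array) was lower by 0.48 ± 0.10 and by 0.37 ± 0.12 (adjusted p = 0.0024 and 0.037). The proteins of these genes are nearly alike, and whether the probes separate their transcripts was not tested.

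Of the troponins, 1 of 7 measured was called against DMSO in the late window (14.3%), where 16.7% of all genes were called. In the middle window limma called 0 of 7, where 11.1% of all genes were called. Tnnt3 encodes the troponin T of fast skeletal muscle. At 48, 96, 144 and 192 h its level was 9.87, 10.63, 9.15 and 11.15 in prieurianin, and at 240 and 288 h it was 8.18 and 8.17. On all DMSO and untreated arrays it lay between 7.22 and 8.65. The 4 high arrays were above every control array, and no other prieurianin array was. The late difference from DMSO was 1.32 ± 0.30 (2.49-fold, adjusted p = 0.0024), 0.85 without 192 h (adjusted p = 0.016) and 2.12 without 240 and 288 h (7.0e-05). From 5 to 48 h the difference was 0.60 ± 0.25 and not called (adjusted p = 0.13), and without 192 h, which enters the error, it was called at the same size (adjusted p = 0.041).

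Tnnt2, the cardiac troponin T, was chosen after its values were seen. It was high at the start in all arms, between 10.06 and 10.47 from 0 to 3 h, and low by 24 h, at 7.51 untreated, 6.50 in DMSO and 7.18 in prieurianin. Over the course its change was -2.45 ± 0.60 in untreated cells, -2.82 ± 0.60 in DMSO and -2.45 ± 0.60 in prieurianin (adjusted p = 0.0010, 0.00021 and 0.0014). Its late levels at 96, 144, 192, 240 and 288 h were 6.37, 6.43, 6.20, 10.45 and 9.42 in prieurianin and 6.94, 6.79, 7.90, 7.91 and 8.01 in DMSO. The first 3 prieurianin arrays were below every late DMSO array and the last 2 above. The late difference from DMSO was 0.26 ± 0.33 (adjusted p = 0.65), 0.76 without 192 h (0.055) and -0.88 without 240 and 288 h (0.048).

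Tnnc1, the troponin C of slow and cardiac muscle, lay between 9.41 and 11.20 on all arrays. Single arrays were high in each arm, at 11.20 in prieurianin (15 h), 11.01 in DMSO (24 h) and 10.81 in untreated cells (1 h). Its difference from DMSO was -0.09 ± 0.20 in the middle window and 0.21 ± 0.24 in the late one. Tnnc2, Tnni1, Tnni3 and Tnnt1 differed from DMSO by -0.13 to 0.15 in both windows and were not called.

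**Figure D3:**
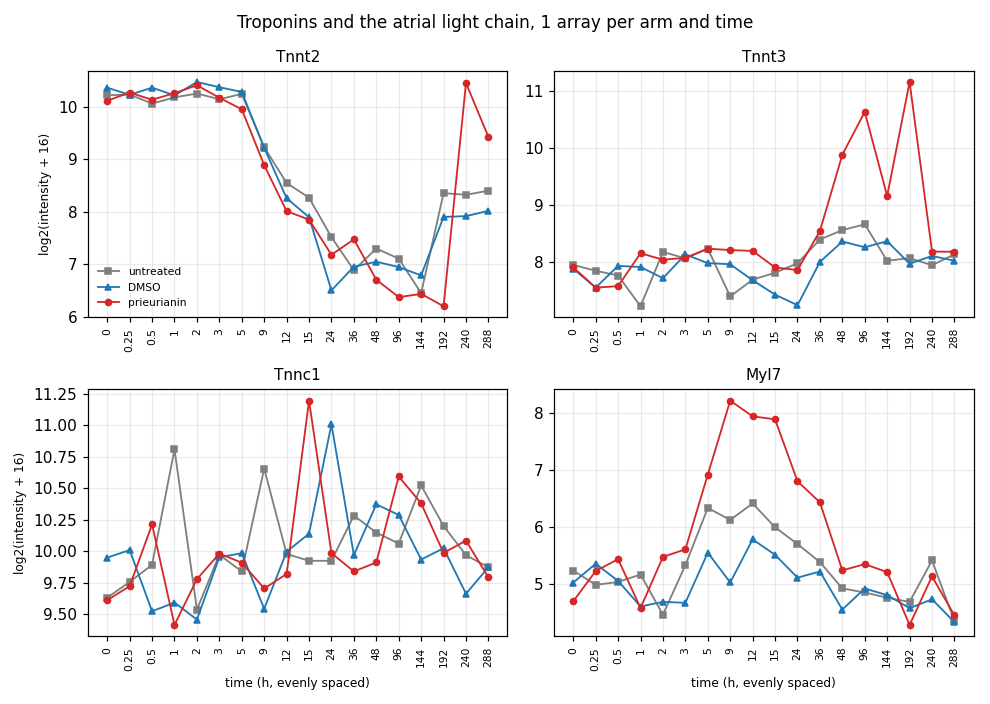
Level of the troponin genes Tnnt2, Tnnt3 and Tnnc1 and of the atrial myosin light chain Myl7 as log2(intensity + 16) against time in h (evenly spaced), 1 array per point and a line per arm. Tnnt3 is high in prieurianin (red) from 48 to 192 h only, Tnnt2 falls in every arm and is high again in prieurianin at 240 and 288 h, and Myl7 peaks in prieurianin at 9 to 15 h.

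The 7 measured sarcomeric myosin chains differed from DMSO by -0.25 to 0.19 in the middle window and by -0.17 to 0.12 in the late one, and none was called. Myh7b, a heavy chain of striated muscle, had late levels of 11.78, 12.15, 12.58, 12.32 and 12.41 in prieurianin and of 12.25, 12.53, 12.25, 11.98 and 11.99 in DMSO. These overlap, and the differences were -0.08 ± 0.12 and 0.05 ± 0.14. Its other 3 probes differed by -0.10 to 0.46 in the late window, none called. Myh8, the perinatal heavy chain, was lower than in untreated cells from 5 to 48 h in both treated arms, by 0.27 ± 0.07 in prieurianin and 0.28 ± 0.07 in DMSO (adjusted p = 0.0065 and 0.0066). Myh8 had 3 probes, and they do not all agree. Another was higher in prieurianin than in untreated cells, by 0.60 ± 0.19 (adjusted p = 0.014 with every probe tested alone), and differed by 0.34 ± 0.19 in DMSO. The remaining probe is not described here.

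Myl7, the atrial regulatory light chain, lay below the limit with a mean of 5.37 and was chosen after its values were seen. With no filter it was higher than in DMSO from 5 to 48 h by 1.80 ± 0.19 (3.49-fold, adjusted p = 5.1e-08 over 16637 genes) and than in untreated cells by 1.22 ± 0.19. At 9 and 12 h it was 8.21 and 7.93 in prieurianin, 5.04 and 5.79 in DMSO, and 6.13 and 6.41 in untreated cells. By 48 h it was 5.25 in prieurianin, 4.56 in DMSO and 4.93 in untreated cells, and the late difference from DMSO was 0.21 ± 0.23. The Myl7 promoter holds both motifs, as do those of Myh4 and Myl3. Myh4 and Myl3 differed from DMSO by 0.08 to 0.15 in both windows and were not called. Myh4 also lay below the limit, with a mean of 4.86, and was read with no filter, so its small differences say little.

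Among the unconventional myosins, Myo1e, a class I myosin of the cell membrane and endocytosis, was called in both windows. Its lowest, median and highest levels from 5 to 48 h were 9.90, 10.81 and 10.98 in prieurianin, 9.39, 9.76 and 10.37 in DMSO, and 9.62, 9.93 and 10.47 in untreated cells. The difference from DMSO was 0.77 ± 0.12 (1.70-fold, adjusted p = 7.2e-05), higher at 7 of 7 times. At 96, 144, 192, 240 and 288 h the levels were 10.42, 10.33, 9.93, 10.55 and 10.79 in prieurianin, 9.55, 9.82, 9.17, 9.55 and 9.70 in DMSO, and 9.78, 9.83, 9.64, 9.57 and 9.41 in untreated cells. Every late prieurianin array was above every late control array. The late difference was 0.85 ± 0.15 (1.80-fold, adjusted p = 0.00016), and 0.87 without 192 h. Myo1e was also called higher than in untreated cells in both windows. That held in 31 of 31 alternative settings in the middle window and in 30 in the late one, not without 240 and 288 h.

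Myo1d, another class I myosin, and Myo10, the motor of filopodia, were called in the middle window. Myo1d was 11.02 at the lowest, 12.20 at the median and 12.46 at the highest in prieurianin against 10.50, 11.09 and 12.05 in DMSO. The ranges overlapped, and the difference was 0.69 ± 0.18 (1.62-fold, adjusted p = 0.013). It was not called without 12 h (0.64, adjusted p = 0.060) or without 15 h (0.59, 0.078), and its other probe differed by 0.33 ± 0.17. The late difference was 0.35 ± 0.22 and not called, but 0.67 without 192 h (adjusted p = 0.0046), where its prieurianin level was 10.49 against 11.97 to 12.54 at the other late times. The other probe was higher late, by 0.76 ± 0.20 (adjusted p = 0.0094 with every probe tested alone).

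Myo10 from 5 to 48 h was 9.12, 10.90 and 11.45 in prieurianin and 8.74, 9.84 and 10.73 in DMSO, again as lowest, median and highest. Its difference was 0.54 ± 0.18 (1.45-fold, adjusted p = 0.044), higher at 6 of 7 times, and the call was lost in 15 of 31 alternative settings, among them leaving out 12 h (0.43, adjusted p = 0.19) or 15 h (0.40, 0.21). The difference was above 1 at 12 and 15 h. Its other probe was higher by 0.60 ± 0.18 (adjusted p = 0.026 with every probe tested alone). The late difference was 0.22 ± 0.21. Against untreated cells Myo10 was not called in the middle window, nor in any of those 31 settings (0.14 to 0.40, lowest adjusted p 0.108).

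Myo7a, a motor of sensory hair bundles, and Myo9b, a myosin that also carries a GTPase-activating domain, were called in the late window. Myo7a at 96, 144, 192, 240 and 288 h was 8.45, 8.58, 8.35, 10.62 and 10.89 in prieurianin, 7.45, 7.60, 9.07, 9.02 and 9.92 in DMSO, and 7.64, 7.75, 8.23, 9.51 and 9.99 in untreated cells. All arms were highest at 288 h among these times, and prieurianin was above DMSO at 4 of 5 times, not at 192 h. The difference was 0.77 ± 0.21 (1.71-fold, adjusted p = 0.011) and 1.14 without 192 h. It was not called without 240 h (0.56, adjusted p = 0.13) or without 288 h (0.72, 0.073).

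Myo9b late levels were 12.17, 12.34, 11.68, 12.48 and 12.12 in prieurianin and 11.73, 11.63, 11.79, 11.57 and 11.59 in DMSO. The 192 h prieurianin array was within the DMSO range and the other 4 were above it. The difference was 0.50 ± 0.11 (1.41-fold, adjusted p = 0.0025), 0.65 without 192 h and 0.35 without 240 and 288 h (not called, 0.24). With median centring it was 0.43 and not called (0.095). Its other probe differed by 0.39 ± 0.10 (adjusted p = 0.0069 with every probe tested alone). Myo9b was also called higher than in untreated cells in both windows, and in 30 of 31 alternative settings in each. The exceptions were median centring in the middle window and leaving out 240 and 288 h in the late one.

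Myo18a and Myo19 were the members called lower in prieurianin than in DMSO. Myo18a, which joins non-muscle myosin II filaments, was 9.28, 9.57 and 10.02 as lowest, median and highest from 5 to 48 h in prieurianin and 9.72, 10.30 and 10.55 in DMSO. It was lower at 7 of 7 times, by 0.57 ± 0.11 (adjusted p = 0.00055). At 96, 144, 192, 240 and 288 h it was 10.02, 9.93, 9.89, 9.83 and 9.26 in prieurianin and 10.13, 10.26, 10.02, 10.72 and 10.43 in DMSO. The late difference was -0.53 ± 0.13 (adjusted p = 0.0046), and -0.63 without 192 h. It was not called without 240 h (-0.44, adjusted p = 0.057) or without 288 h (-0.37, 0.093), nor in the middle or late window with median centring (-0.46, adjusted p = 0.12 in the middle one). Myo18a was also called lower than in untreated cells in both windows, and in each of 31 alternative settings. Over those settings it differed by -0.88 to -0.66 in the middle window and by -0.86 to -0.44 in the late one.

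Myo19, a motor on mitochondria, was 8.25, 8.41, 9.35, 8.93 and 8.49 at the late prieurianin times and 8.99, 9.51, 9.21, 9.33 and 9.29 in DMSO. It was lower at 4 of 5 times, by 0.58 ± 0.16 (adjusted p = 0.012), and by 0.76 without 192 h. It was not called without 144 h (-0.45, adjusted p = 0.086) or without 288 h (-0.53, 0.083), nor with median centring (-0.62, 0.084). In the middle window it differed by -0.09 ± 0.14. Against untreated cells Myo19 was called in neither window, nor in any of 31 alternative settings. Over those settings it differed by 0.06 to 0.25 in the middle window and by -0.37 to -0.07 in the late one.

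**Figure D4:**
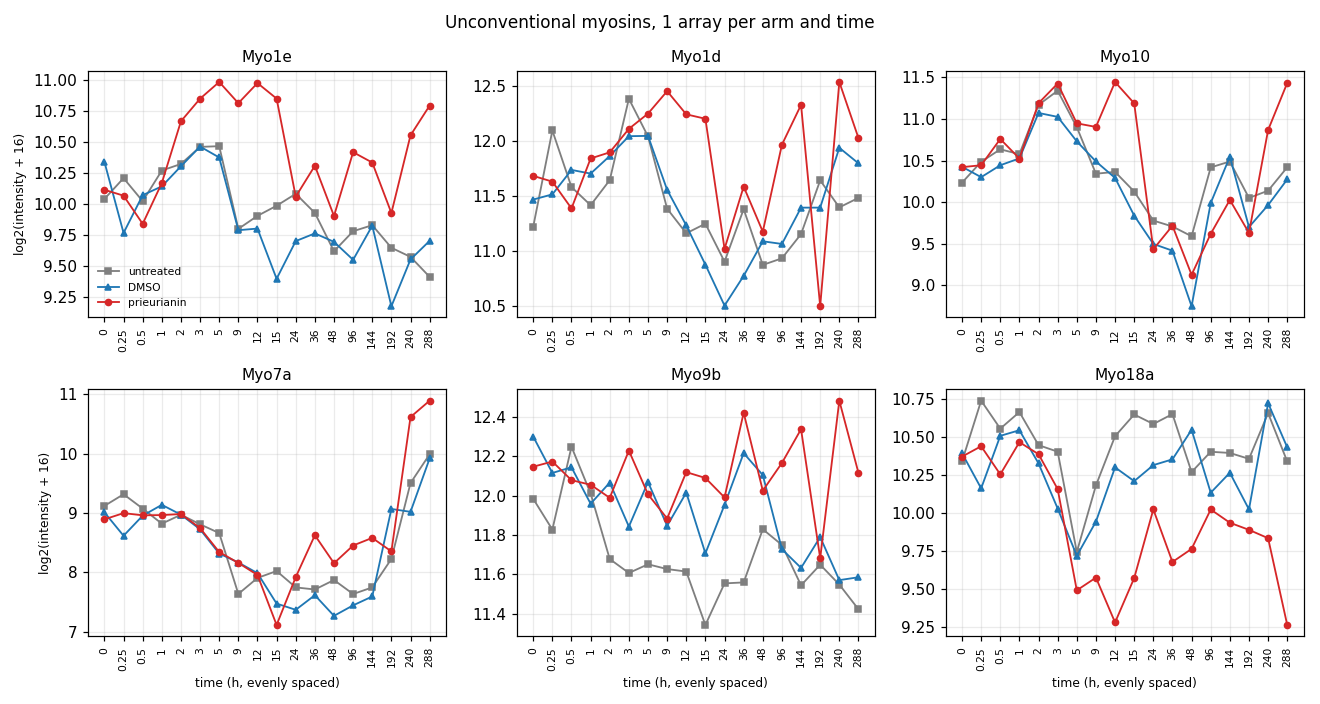
Level of 6 unconventional myosins as log2(intensity + 16) against time in h (evenly spaced), 1 array per point, in untreated cells (grey), DMSO (blue) and prieurianin (red). Against DMSO, Myo1e, Myo1d and Myo10 are higher in prieurianin at 9 to 15 h, Myo7a and Myo9b in the late window except at 192 h, and Myo18a is lower from 5 h on.

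The other 9 measured unconventional myosins differed from DMSO by -0.23 to 0.26 in the middle window and by -0.36 to 0.27 in the late one, and none was called. Myo5a, a vesicle motor, differed by 0.23 ± 0.11 and -0.36 ± 0.14, and the change between windows was -0.60 ± 0.18 (adjusted p = 0.039). That of Tpm4 was 0.57 ± 0.18 (adjusted p = 0.047) through the saturated probe, which limits the middle difference, and 0.15 ± 0.23 and 0.47 ± 0.24 through the unsaturated ones (adjusted p = 0.75 and 0.25). The other Myo5a probe changed by 0.09 ± 0.18. These were the 2 of 38 members called in the test of the difference between windows, where 6.74% of all genes were called. Without 192 h 7 members were called, where 15.8% of all genes were called. Both calls were lost without 9, 12, 15, 240 or 288 h, and with the mean of a gene's probes, under which Myo5a changed by -0.25 and Tpm4 by 0.39.

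The vehicle by itself moved few members. DMSO differed from untreated cells in 4 of 38 members from 5 to 48 h (Myo9b higher; Myh8, Myo9a and Tpm3 lower), where 20.3% of all genes were called. From 96 to 288 h limma called 0 of 38, where 3.65% of all genes were called, and 3 members had an unadjusted p under 0.05. Prieurianin differed from untreated cells in 10 of 38 members in each of these windows, 7 higher and 3 lower in the middle one and 9 higher and 1 lower in the late one, where 28.5% and 22% of all genes were called. The members' share of 26.3% is near those backgrounds, and these comparisons share arrays with those against DMSO. In the late one 13 were called without 192 h (28.5% of all genes) and 7 without 240 and 288 h (10% of all genes). From 0.25 to 3 h 1 member was called against untreated cells (Myh8, lower by 0.30 ± 0.09, adjusted p = 0.038), where 5.93% of all genes were called.

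Over the course of the untreated cells, the late window against 0 to 3 h, 10 of 38 members were called, 3 higher and 7 lower, where 34.3% of all genes were called. Tpm1 fell by 1.79 ± 0.25 (3.47-fold, adjusted p = 1.0e-07), Tpm4 by 1.08 ± 0.17 (2.2e-06, with its saturated probe) and Myo1e by 0.57 ± 0.18 (0.011). Myo6, a motor that walks towards the pointed end of actin, rose by 1.00 ± 0.18 (adjusted p = 2.4e-05), and Myo1c, which serves the insulin-responsive glucose transporter of fat cells, by 0.62 ± 0.19 (0.0089). In DMSO 8 were called, 2 higher and 6 lower, where 32.6% of all genes were called. There Tpm1 was at -1.69 ± 0.25, Tpm4 (same saturated probe) at -0.95 ± 0.17 and Myo6 at 0.84 ± 0.18. In prieurianin 8 were called, 5 higher and 3 lower, where 30.4% of all genes were called. At 5 to 48 h Myh9 had also fallen in both controls, by 0.64 ± 0.17 and 0.63 ± 0.17 (adjusted p = 0.0070 and 0.0075), where 16.3% and 17.4% of all genes were called. In prieurianin Tpm2 rose by 1.25 ± 0.18 (adjusted p = 7.5e-07), Myh9 by 0.81 ± 0.19 (0.00067) and Myo1c by 0.77 ± 0.19 (0.0014), and the change of Tpm1 was 0.00 ± 0.25.

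The difference between the prieurianin and DMSO courses was called for 2 of 38 members, where 0.336% of all genes were called. Tpm2 differed by 1.66 ± 0.26 (adjusted p = 7.9e-05) and Tpm1 by 1.69 ± 0.35 (0.0076). Tpm2 had risen by 1.25 in prieurianin and was at -0.41 in DMSO (not called), whereas Tpm1 was level in prieurianin and had fallen in DMSO. For Myh9 the difference was 1.03 ± 0.26 (adjusted p = 0.064), and 1.24 without 192 h (0.0026). Without 192 h 5 members were called, where 3.89% of all genes were called. Myh9, Myo9b and Tpm4 (through its saturated probe) were the added ones. The Tpm1 call was lost without 144 h (1.44, adjusted p = 0.054) and with median centring (1.67, 0.059).

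**Figure D5:**
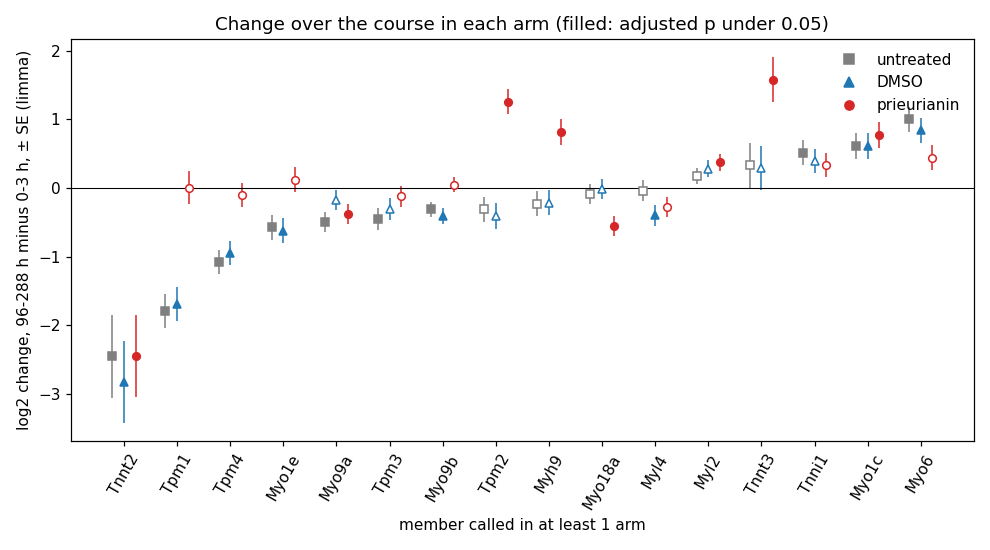
Log2 change from the 0 to 3 h window to the 96 to 288 h window (y axis, with standard errors from limma) in untreated cells (grey squares), DMSO (blue triangles) and prieurianin (red circles), for the 16 members called in at least 1 arm; filled symbols have an adjusted p under 0.05. Tpm1 and Tpm4 are filled below 0 in both controls and lie unfilled near 0 in prieurianin. Tpm2 and Myh9 are filled above 0 in prieurianin alone. The test between courses called this contrast with DMSO for Tpm1 and Tpm2. Tpm4 is drawn through its brightest probe, saturated most often in prieurianin, so its prieurianin point does not show that its level held.

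Other genes that act on these motors were read from a list of 36 regulators of contraction, of which 29 were measured. From 5 to 48 h 10 were higher than in DMSO and 0 lower, and from 96 to 288 h 8 were higher and 1 lower, where 11.1% and 16.7% of all genes were called. Against untreated cells 8 were higher and 2 lower in the middle window and 5 and 1 in the late one, where 28.5% and 22% of all genes were called. DMSO differed from untreated cells in 2 higher and 5 lower in the middle window, where 20.3% of all genes were called. In the late one it differed in 0 of 29 by limma, where 3.65% of all genes were called. The list's median differences were 0.09 and 0.15. The largest differences from DMSO were those of Mylk, the kinase that switches on smooth and non-muscle myosin II (1.35 ± 0.32 and 2.29 ± 0.38), and the leiomodin Lmod1 (1.31 ± 0.25 and 2.09 ± 0.30). Caldesmon, Cald1, which binds tropomyosin and actin, was higher by 1.26 ± 0.20 and 1.47 ± 0.23. The myosin and actin scaffold Svil was higher by 0.91 ± 0.13 and 0.60 ± 0.16, and the cytokinetic scaffold Anln by 0.99 ± 0.16 in the late window, with 0.07 ± 0.13 in the middle one. The calls of these 5 genes had adjusted p between 1.25e-05 and 0.0084. The 1 lower gene was Tmod3, a capping protein of tropomyosin-coated filaments, at -0.30 ± 0.11 (adjusted p = 0.0496).

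Of 39 other sarcomere genes 21 were measured, with 0 called by limma from 5 to 48 h and 2 from 96 to 288 h, a smaller share than over all genes (11.1% and 16.7%). The 2 were Myoz2, a Z-disc protein of slow muscle (1.05 ± 0.24, adjusted p = 0.0026), and Actn3, the alpha-actinin of fast muscle (0.72 ± 0.15, 0.0010). The list's medians were 0.07 and 0.11. Nebulin (Neb), the M-band gene Myom1 and the thick filament genes Mybpc1 and Mybpc2 lay below the limit, while Myom2, Myom3, Mybpc3 and Mybph were measured (6.15 to 7.61) and not called.

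Some cell type markers also differed between prieurianin and DMSO, and their part in these results was not tested. The lists overlap, and Lmod1 and Actn3 are also on the lists of regulators and sarcomere genes above. For all marker counts against DMSO below, the share called over all genes was 11.1% in the middle window and 16.7% in the late one. The mean of the 8 smooth muscle markers, all measured, ran from 8.36 to 9.14 in prieurianin in the middle window and from 8.85 to 9.43 in the late one, against 7.47 to 7.89 and 7.53 to 7.74 in DMSO. The median of their differences from DMSO was 0.02 in the middle window and 0.40 in the late one. Of the 8, Actg2, Smtn and Lmod1 were higher in both windows, by 2.09 to 7.38 in the late one. Cnn1, Des, Myocd, Synpo2 and Myh11 were not called, with late differences of -0.21 to 0.49. Of the 7 measured adipocyte markers 6 were lower in the late window (-0.72 to -3.45), and none was called in the middle one, where their median difference was -0.40. Their mean was 7.51 in prieurianin and 8.72 in DMSO at 36 h, and 9.51 and 10.31 at 48 h. Against untreated cells in the middle window Cidec and Lpl were lower and Fabp4 higher, where 28.5% of all genes were called. Of 4 measured macrophage markers 1 was called in the middle window (Lyz2, lower by 0.38 ± 0.12) and none in the late one. Of the 6 preadipocyte markers Pdgfra was lower in both windows, and in the late one Dlk1 was lower and Col1a1 and Thy1 higher. Late, Actn3 was the 1 of 6 measured skeletal muscle markers called and Nppb the 1 of 2 measured cardiac ones (1.09 ± 0.19), both higher. The 1 measured endothelial marker of 4 was not called.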

How the data were processed

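Per the labels' protocols, total RNA purified on columns was amplified as aRNA with amino allyl UTP, labelled with Cy5 and read in 1 colour. The values the authors deposited fit a linear intensity scale, from -83 to 65497, with 0.47% under 0. Background subtraction, scaling and scanner are not given in the sources used here.

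Arrays were quantile-normalised with limma 3.58.1 (R 4.3.3), floored at 0 and put on the log2 scale as log2(intensity + 16). Platform symbols were updated through RefSeq names (GRCm38.p6), with 17558 probes current, 3410 updated and 52 kept as given. Each gene was read through its probe of highest mean, and genes with a mean above 6.07 were tested, 12792 of 16637. Arms were compared within windows with time as a factor and 0 h left out (28 residual degrees of freedom), and courses with a mean per arm and window (45). P-values were Benjamini-Hochberg adjusted over all genes. The spread is that among the times of a window, and adjacent times may depend on each other.

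Values by array are given, in each class, for the member of highest mean and for up to 4 members called between prieurianin and DMSO with the largest difference. Of the lists, up to 5 called genes of largest difference are named. Tnnt2, Myl7, Myo10 and Myo18a were singled out after their values were seen. Members and lists were chosen with earlier results of these data known. The fits were run on simulated data with independent noise per array, so dependence between adjacent times was not checked. Alternatives covered the scaling, pseudocount, filter, probe choice, time block, arms in the fit and each time left out. Leaving out 240 and 288 h together was added after seeing the data.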

Additional observations from a re-analysis of the deposited data

Results flagged for a closer look

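Among 45 checks for a time that stands apart from the others of its window, 3 did, and chance gives about 1 in 20. Myo1d differed between prieurianin and DMSO by -0.35 at 0.5 h, where the other 4 times of the early window gave 0.03 to 0.14. Tnnt3 differed by 1.52 at 48 h, against 0.25 to 0.62 at the other 6 times from 5 to 48 h. Myo7a differed by -0.71 at 192 h, against 0.97 to 1.60 at the other 4 late times.

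For 4 members a test of the difference between windows or arms was past the threshold. The difference between prieurianin and DMSO changed from the middle to the late window by -0.60 for Myo5a (0.23 to -0.36) and by 0.57 for Tpm4 (0.34 to 0.91). For Tpm4 this is read through a probe saturated in 6 of 7 middle prieurianin arrays, and its unsaturated probes changed by 0.15 and 0.47 and were not called. The course from 0 to 3 h to the late window differed between prieurianin and DMSO by 1.69 for Tpm1 and by 1.66 for Tpm2.

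A pair of genes below the limit for measured genes differed from DMSO when all 16637 genes were tested. Myl7 was higher by 1.80 from 5 to 48 h, and Tnni3k was higher by 0.59 ± 0.19 from 96 to 288 h (adjusted p = 0.041).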

How the results depend on the processing

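Over 32 alternative settings and 90 results on single members, 2609 of 2700 recomputed values kept their side of the threshold, 77 lost the call and 11 gained it. Of the 2609, 60 changed sign and were called neither before nor after. In 3 more the sign changed with a call on one side: Tnnt2 in the late window without 240 and 288 h (-0.88 against DMSO and -0.97 against untreated cells) and Myh7b in the prieurianin course with the mean of all probes (0.30). The middle count against DMSO, 8, was 5 with median centring and 5 without a time block. Against untreated cells the middle and late counts, 10 each, were both 16 with every probe tested on its own. The 4 members called between DMSO and untreated cells became 2 with values as deposited, 8 with every probe and 10 with only these arms in the fit. The course difference, 2 members, was 1 with median centring and 4 without 240 and 288 h. The 2 members called between windows were 0 with median centring, as deposited, with the mean of all probes, without a time block, with only the arms compared and without 240 and 288 h, and 1 with no filter or with time as a random block. Leaving out 1 time at a time gave 5 to 9 members (middle) and 7 to 12 (late) against DMSO, 8 to 11 and 9 to 13 against untreated cells, and 3 to 6 between DMSO and untreated cells. It gave 8 to 11, 7 to 9 and 7 to 8 in the untreated, DMSO and prieurianin courses, 1 to 5 for the course difference, 0 to 7 between windows, and 0 in the early window against DMSO and late between DMSO and untreated cells. The cause of these changes was not tested. Median centring moved the median of all genes by -0.18 between DMSO and untreated cells in the middle window. Random block, no block and 0 h included were not run for courses. Comparisons between arms were paired by time, and the fit without a time block is the one with no replicate block.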
